A study of Mus musculus with 32 samples.

Results

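The comparison described here sets marrow blood stem and progenitor cells of mice at 6 weeks of age against those at 4 weeks, by chromatin accessibility. It uses 6 of the 32 samples of the series, 3 libraries named 6w BM and 3 named 4w BM, and 96960 autosomal regions of the 99037 in the table. 3 libraries named 8w BM were used to ask whether a difference was still there at 8 weeks. All were C57BL/6 mice, and all cells were LSK, that is lineage-negative, Sca-1-positive and Kit-positive cells, the marrow fraction that holds stem cells and early progenitors. The assay was ATAC-seq, in which the enzyme Tn5 cuts open DNA and the cut fragments are sequenced. The labels give no treatment or mutation for these 9 libraries, and they give neither the sex of the mice, nor whether animals were pooled, nor whether the replicates are separate animals. The p-values below therefore measure the spread between libraries, part of which may be technical.

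Sorted LSK cells are a mixture: stem cells, which rarely divide, and multipotent progenitors already leaning to one lineage. Immediate early genes are the first genes switched on after a cell receives a signal, before any new protein is made. Many encode transcription factors, among them Fos and Jun family proteins, which pair to form the factor AP-1, and others encode proteins that end the response, such as Zfp36, which triggers decay of short-lived messages. They respond to growth factors, and they are also known to respond to the handling of tissue when cells are isolated.

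Library totals were between 3953949 and 4990606 counts in 6w BM, between 4288615 and 6207394 in 4w BM and between 4505341 and 6521956 in 8w BM. Gene starts held 33.8 to 34.9% of counts in 6w BM and 33.5 to 33.8% in 4w BM. The authors' peak lists, called library by library, held 29878, 39383 and 39000 autosomal peaks in 6w BM and 27991, 47267 and 32807 in 4w BM, a ratio of means of 1.00 (exact permutation test, two-sided, p = 1, where 0.1 is the smallest p that 3 against 3 allows). The library titled 8w BM 3 has E12.5 as its stage label. Its log2 counts correlated with 8w BM 1 and 2 at r = 0.914 and 0.919. With the E12.5 fetal liver libraries r was 0.819 to 0.833, and with the libraries labelled E12.5 PL 0.480 to 0.552. With the 3w, 4w and 6w BM libraries it was 0.900 to 0.923, so these values do not tell 8w BM from those ages. The library was kept as 8w BM on its title, and the results on 8 weeks that change without it are given both ways. Outside the autosomes, counts at Xist, the RNA that silences an X chromosome, were 11.1, 9.82 and 13.8 CPM in 6w BM. In 4w BM they were 30.5, 22.9 and 26.9 CPM. CPM are counts scaled to a common library total, on the X chromosome by total counts alone and in autosomal regions by TMM. The 8w BM libraries, at 12.9, 12.6 and 12.2 CPM, lay with 6w BM. The part of this difference in the autosomal results was not tested.

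Few autosomal regions differed. Of 96929 regions tested, 125 were higher in 6w BM than in 4w BM (0.129%) and 10 were lower (0.0103%) at an adjusted p under 0.05 (edgeR quasi-likelihood test, Benjamini-Hochberg over all autosomal regions). At an unadjusted p under 0.05 the counts were 3688 and 3405, and the median log2 fold change over all regions was -0.01. The regions that were higher fell into a pair of sets. One holds 59 regions, 17 of them at 9 genes of the immediate early list and 18 of them at 3' ends of genes. The other holds 66 regions, scattered over the genome, that went up and down together across libraries of all stages. Leaving out 1 library changed these counts: 69 regions passed without 6w BM 3, 82 without 4w BM 2 and 84 without 4w BM 3, against 135 (0.139%) with all libraries.

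At the level of genes, counts were summed over all regions within 50 kb that had the gene as nearest neighbour. Of 16246 genes, 25 were higher (0.154%) and 1 was lower (0.00616%), 0.16% in all. Unadjusted, 1030 and 868 passed. Rgs1, Jun, Tspoap1, Zfp36, Fosb, Rhob and Fos led the list, and the lower gene was Crhbp. Only 2 genes passed without 6w BM 3, 6 without 4w BM 3, 12 without 4w BM 1, and 13 each without 4w BM 2 and without 6w BM 1.

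The promoters of 4 leading genes are shown first, because the changes described below lay mostly away from them. Each is the RefSeq window of 300 bases on GRCm38.p6, from 250 bases before to 50 bases after the start. Fos, at chr12:85473640-85473939 (plus strand), and Jun, at chr4:95052173-95052472 (minus strand), encode partners in AP-1. Fosb, at chr7:19309996-19310295 (minus strand), encodes another Fos family partner. Rhob, at chr12:8499960-8500259 (minus strand), encodes a small GTPase of the actin cytoskeleton and had the one promoter of these 4 that passed the test. Capitals mark TATAAA.
Fos: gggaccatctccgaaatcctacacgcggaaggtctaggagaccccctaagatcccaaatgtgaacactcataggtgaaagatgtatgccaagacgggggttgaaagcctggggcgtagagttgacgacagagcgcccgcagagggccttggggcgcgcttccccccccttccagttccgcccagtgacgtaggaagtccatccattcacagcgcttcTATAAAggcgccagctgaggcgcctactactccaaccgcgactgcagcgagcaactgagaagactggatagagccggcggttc
Jun: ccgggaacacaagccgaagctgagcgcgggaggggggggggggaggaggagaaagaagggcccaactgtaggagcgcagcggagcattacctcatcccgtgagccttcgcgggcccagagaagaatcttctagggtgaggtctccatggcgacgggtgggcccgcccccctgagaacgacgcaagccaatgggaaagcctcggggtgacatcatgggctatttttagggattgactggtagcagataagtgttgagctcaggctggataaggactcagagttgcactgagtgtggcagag
Fosb: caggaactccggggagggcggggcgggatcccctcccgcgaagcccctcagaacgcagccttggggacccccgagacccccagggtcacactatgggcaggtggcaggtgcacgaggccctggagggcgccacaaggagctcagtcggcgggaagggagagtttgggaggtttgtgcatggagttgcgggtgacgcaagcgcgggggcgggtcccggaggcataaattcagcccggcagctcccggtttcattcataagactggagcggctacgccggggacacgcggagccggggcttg
Rhob: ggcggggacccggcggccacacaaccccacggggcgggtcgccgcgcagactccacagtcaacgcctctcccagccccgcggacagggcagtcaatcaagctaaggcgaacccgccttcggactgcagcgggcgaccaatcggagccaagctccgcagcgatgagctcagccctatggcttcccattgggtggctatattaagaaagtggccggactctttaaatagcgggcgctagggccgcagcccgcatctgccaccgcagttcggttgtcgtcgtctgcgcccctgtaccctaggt
These windows were searched on both strands for the AP-1 motif TGANTCA, the cyclic AMP response element TGACGTCA, the CArG box and the TATA box TATAAA. Among 31396 autosomal promoter windows, 7.84, 1.83, 1.57 and 13.6% held these motifs. The Fos window held 1 TATAAA, and these letters were otherwise not found in the 4 windows. The regions over these starts had log2 fold changes of 0.27 (adjusted p = 0.780) at Fos, 0.58 (0.0659) at Jun, 0.20 (0.887) at Fosb and 0.74 (0.0225) at Rhob, by edgeR's quasi-likelihood test.

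Of the genes for AP-1 partners, Fosb, Fos and Jun had regions that passed at their 3' ends. The region past the 3' end of Fosb (chr7:19301004-19302533) had 206, 64.2 and 257 CPM in 6w BM, against 53.5, 21.1 and 37.5 CPM in 4w BM. All 3 libraries of 6w BM were above all of 4w BM, with 6w BM 2 well below its partners. The log2 fold change was 2.24 (SE 0.297, adjusted p = 8.4e-06, edgeR). A RefSeq promoter window of the predicted gene Gm26802 overlaps this region.

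Downstream of Fos (chr12:85477698-85478330) the counts were 127, 24.7 and 145 CPM in 6w BM, against 21.9, 6.22 and 18.3 CPM in 4w BM. Again 6w BM 1 and 3 stood high, and 6w BM 2 was just above the highest 4w BM library. The log2 fold change was 2.70 (SE 0.436, adjusted p = 0.000165, edgeR). 3 further regions around Fos passed, at log2 fold changes of 2.59, 2.27 and 1.28. Jun has a region across its 3' end (chr4:95048023-95049628) with 591, 138 and 628 CPM in 6w BM, against 138, 68.2 and 134 CPM in 4w BM. Here the groups overlapped narrowly, 6w BM 2 lying at the level of the highest 4w BM library, and the log2 fold change was 2.00 (SE 0.340, adjusted p = 0.000445, edgeR).

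Jund, a Jun family member expressed in most cells, has regions beyond its end that overlap the start and the body of its neighbour Iqcn, to which they were assigned. They begin 699 and 1701 bases past the end of Jund and had log2 fold changes of 1.82 and 2.06. The longer of them (chr8:70702317-70703201) had 203, 54 and 217 CPM in 6w BM, against 59.7, 15.7 and 38.9 CPM in 4w BM. The libraries overlapped, 6w BM 2 lying under the highest of 4w BM, and the adjusted p was 0.000165 (edgeR).

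Among transcription factors outside AP-1, Egr1, a zinc finger factor, had a region past the gene's end with 110, 56.4 and 163 CPM in 6w BM, against 44.3, 17.6 and 32.3 CPM in 4w BM. The groups did not overlap, and the log2 fold change was 1.81 (SE 0.276, adjusted p = 8.41e-05, edgeR). The orphan nuclear receptor gene Nr4a1 had 111, 78.2 and 122 CPM past its 3' end (chr15:101275117-101276185) in 6w BM, against 48.5, 38.4 and 40.9 CPM in 4w BM. These groups were also apart, at a log2 fold change of 1.28 (SE 0.207, adjusted p = 0.000165, edgeR).

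The Kruppel-like factors Klf2, which keeps lymphocytes quiescent, and Klf6 depended more on single libraries. At the end of Klf2 (chr8:72322172-72322902) there were 131, 36.7 and 122 CPM in 6w BM, against 37.6, 38 and 42.8 CPM in 4w BM. At the end of Klf6 (chr13:5870233-5871063) there were 73.8, 15.1 and 67.1 CPM in 6w BM, against 20.2, 11.4 and 16.8 CPM in 4w BM. At Klf2 the 6w BM 2 value was just under all of 4w BM, and at Klf6 it was inside the 4w BM range. The log2 fold changes were 1.28 (adjusted p = 0.00137) and 1.69 (adjusted p = 0.00203, edgeR).

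Of the genes that end the response, Zfp36 and Btg2 had 3'-end regions that passed. Their start regions did not (0.65 at Zfp36, -0.33 and 0.18 at Btg2). Nor did those of the phosphatase genes Dusp1 (0.02), Dusp2 (0.16) and Dusp6 (0.32), whose gene-end regions were all at starts. Zfp36 had 175, 83 and 232 CPM at its 3' end (chr7:28376099-28376761) in 6w BM, against 73, 37.8 and 61.5 CPM in 4w BM, with no overlap (log2 fold change 1.51, SE 0.232, adjusted p = 9.68e-05, edgeR). Btg2, an antiproliferative gene that promotes loss of message tails, had 85.6, 38 and 91.1 CPM (chr1:134074206-134074972) in 6w BM, against 36.2, 15.4 and 29.2 CPM in 4w BM. Its lowest 6w BM library was just above its highest 4w BM library, and the log2 fold change was 1.42 (SE 0.258, adjusted p = 0.00136, edgeR). In each of the immediate early regions with CPM printed above, 6w BM 2 was the lowest library of its group. In all of them but that of Klf2, 4w BM 2 was the lowest of its group too. At Fosb, Fos and Jun the same held for 8w BM 2. These libraries had the largest totals of their groups, and the part of depth or of the replicate number was not tested.

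**Figure D1:**
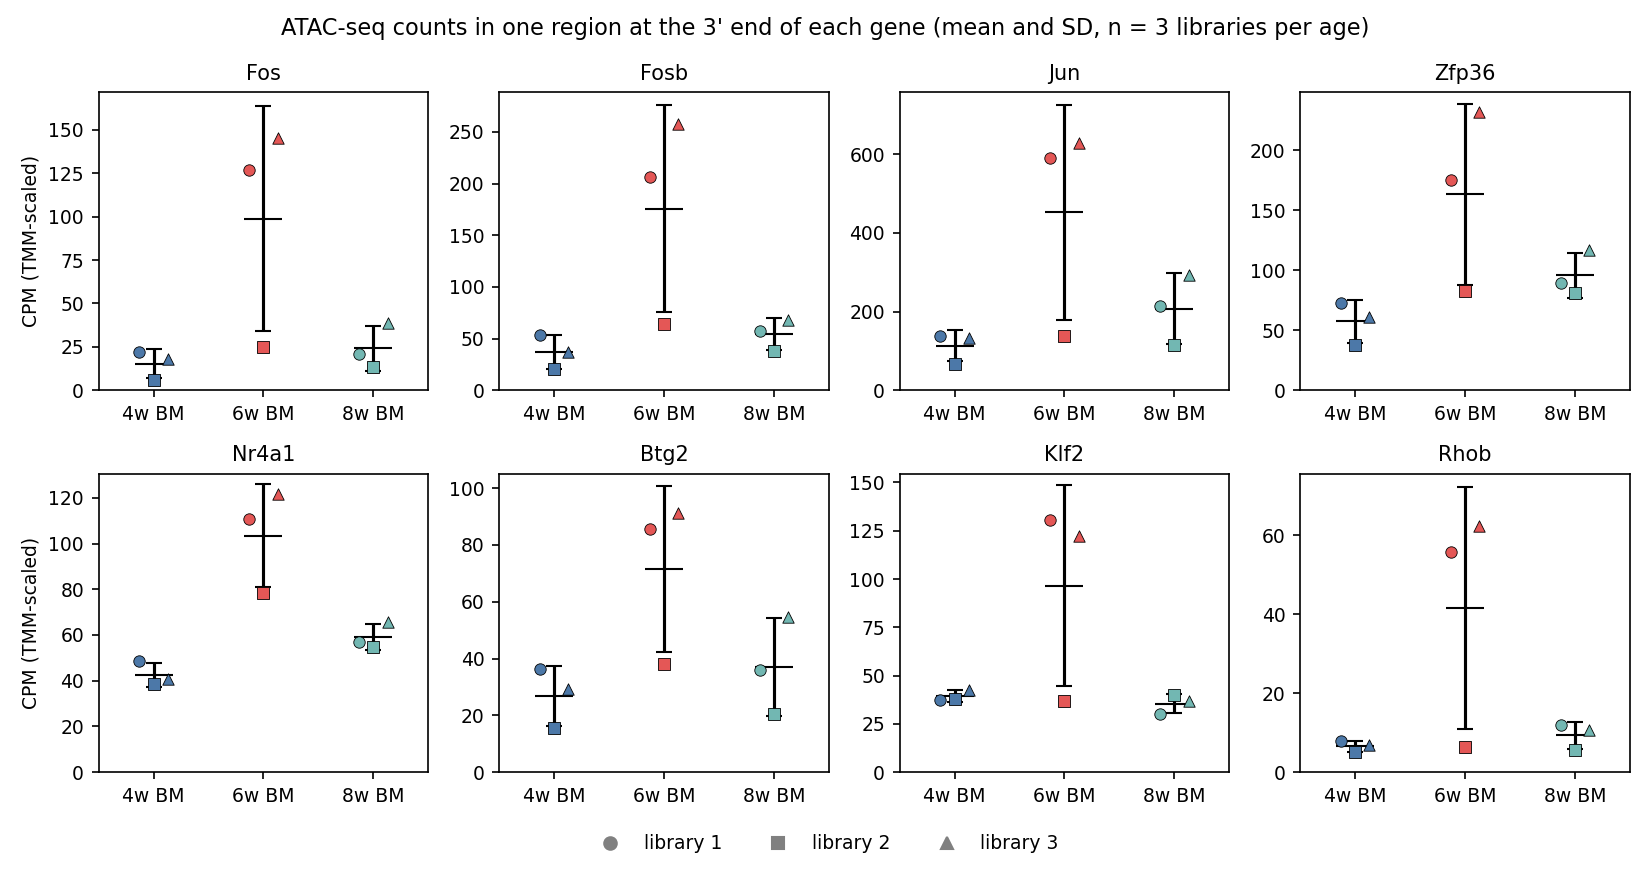
CPM (vertical axes) in each library at the 3'-end region of smallest p for Fos, Fosb, Jun, Zfp36, Nr4a1, Btg2, Klf2 and Rhob, with 1 point per library, a marker shape per replicate number, the mean as a line and the SD as a bar (n = 3). 6w BM 1 and 3 stand above the other libraries and 6w BM 2 lies nearer to 4w BM, as at Fosb, with 206, 64.2 and 257 CPM in 6w BM and 53.5, 21.1 and 37.5 CPM in 4w BM.

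More of the regions that passed lay at 3' ends of genes than at starts. Of the 59 regions, 28 (47.5%) lay within 1 kb of a gene's start or end, against 18.1% of all regions tested. Of the 22 whose gene has a strand in the annotation, 18 were at the 3' end, although only 2157 of 13845 such regions in the table (15.6%) are. By another count, 19 of 2157 regions at 3' ends (0.881%) and 4 of 11688 at starts (0.0342%) were higher. The median log2 fold change over all 3'-end regions was -0.02, so 3' ends in general were not raised.

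Within the 26 immediate early genes listed, 14 regions of 10 genes were at 3' ends. 10 of the 14 passed, and the median log2 fold change was 1.47. The 25 start regions of 21 genes had a median of 0.28, a range of -0.33 to 0.73, and none passed. Of these 25, 22 were positive and 15 had no overlap between the groups, against 13 and 6 of the 14. Over all 11688 start regions tested, 6537 were positive, 2190 had no overlap, and the median was 0.04. Junb, a Jun family member, had 3'-end regions at -0.08 and 0.15, and Klf4, a Kruppel-like factor, was at 1.94 (adjusted p = 0.183, edgeR). Because the list was chosen with results of these data known, these counts are a description.

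**Figure D2:**
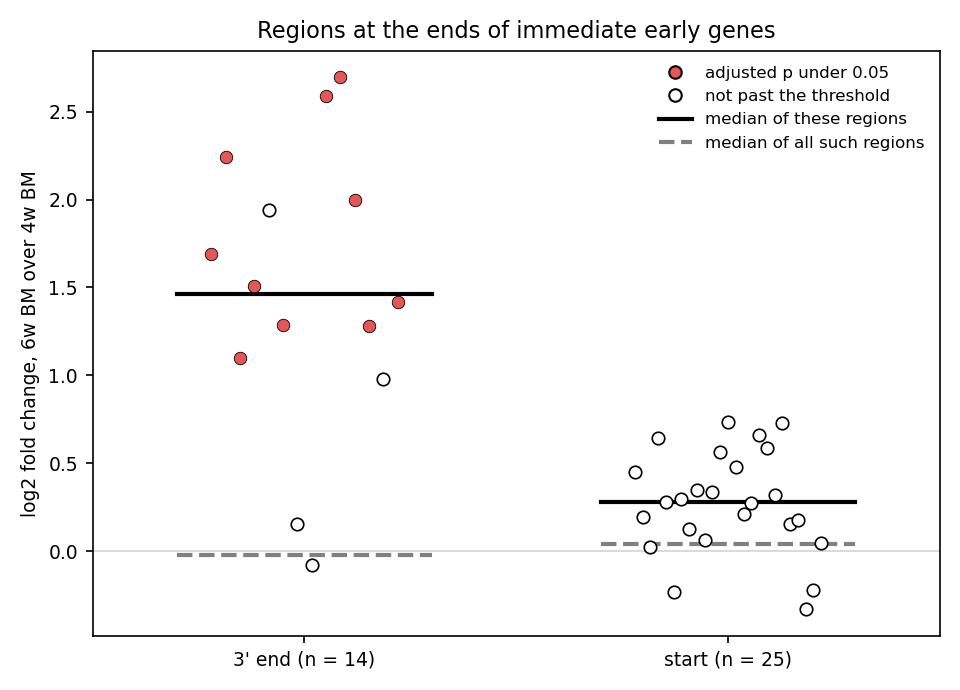
Log2 fold change of 6w BM over 4w BM (vertical axis) for regions at the starts and at the 3' ends of genes of the immediate early list, with filled points for an adjusted p under 0.05 and lines at the medians. The 25 start regions lie around their median of 0.28 with none filled, and the 14 regions at 3' ends lie around a median of 1.47 with 10 filled.

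Summed over those 14 regions, the libraries of 6w BM held 1908, 709 and 2123 CPM, against 665, 420 and 584 CPM in 4w BM. The 6w BM 2 value was close to the highest 4w BM value. 8w BM held 741, 602 and 969 CPM, and the libraries of all other stages 198 to 702 CPM. Sums over the start regions were 1766, 1716 and 1937 CPM in 6w BM and 1436, 1483 and 1441 CPM in 4w BM, also with no overlap.

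Per gene, 8 of the 26 passed upward (Jun, Zfp36, Fosb, Fos, Nr4a1, Klf6, Klf2 and Egr1), none passed downward, and 21 were positive, with a median log2 fold change of 0.25 against -0.01 over all genes. Of all 16246 genes tested, 0.154% passed upward, 0.00616% passed downward and 7744 were positive. Jun had 923, 445 and 969 CPM in 6w BM, against 354, 285 and 355 CPM in 4w BM (log2 fold change 1.23, SE 0.178, adjusted p = 0.000176, edgeR). Under the alternatives run for the genes named here, Jun kept its call in all of them. Zfp36 and Fosb did not pass without 6w BM 3, and Fos passed neither without 6w BM 3 nor without 6w BM 1. Members that did not pass include Junb (0.17), Atf3 (0.12), Myc (-0.04) and Fosl1 (-0.37).

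Several genes outside the list had the same library pattern. Rgs1 and Rgs2 encode proteins that turn off G protein signals, Rgs1 downstream of chemokine receptors among others. Near Rgs1 (chr1:144242327-144242827) there were 60.1, 11.4 and 59.5 CPM in 6w BM, against 9.99, 7.95 and 6.38 CPM in 4w BM. 6w BM 2 was again the lowest of its group, though above every 4w BM library, at a log2 fold change of 2.42 (SE 0.339, adjusted p = 2.27e-05, edgeR). Over its 9 regions Rgs1 had 469, 353 and 562 CPM in 6w BM, against 219, 215 and 171 CPM in 4w BM, the gene of smallest p (log2 fold change 1.19, SE 0.164, adjusted p = 0.000114, edgeR). Rgs2 (chr1:143999310-144000454) had 90.2, 45.9 and 103 CPM in 6w BM, against 30, 20.9 and 27.7 CPM in 4w BM, with no overlap (log2 fold change 1.61, SE 0.232, adjusted p = 3.59e-05, edgeR).

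Cytoskeletal genes were represented by Actb, which encodes beta-actin, by Vim, which encodes vimentin, and by Rhob. Beside Actb (chr5:142901875-142902654) there were 57.7, 33 and 94.6 CPM in 6w BM, against 25.2, 10.5 and 14.3 CPM in 4w BM, and the groups did not overlap (log2 fold change 1.90, SE 0.274, adjusted p = 3.59e-05, edgeR). Past the end of Vim (chr2:13583403-13584211) the values were 27.9, 2.84 and 36.8 CPM in 6w BM, against 5.71, 2.76 and 4.26 CPM in 4w BM. That rise rested on 6w BM 1 and 3, since 6w BM 2 lay inside the 4w BM range (log2 fold change 2.41, adjusted p = 0.000674, edgeR). At the 3' end of Rhob (chr12:8497218-8497718) there were 55.8, 6.34 and 62.5 CPM in 6w BM, against 7.85, 5.01 and 6.81 CPM in 4w BM, again with 6w BM 2 inside the 4w BM range (log2 fold change 2.66, adjusted p = 0.000165, edgeR). The Rhob promoter printed above was steadier, with 161, 125 and 197 CPM in 6w BM (chr12:8499897-8500407), against 90.9, 107 and 89.6 CPM in 4w BM, and no overlap (log2 fold change 0.74, SE 0.163).

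Neat1, the long noncoding RNA that scaffolds nuclear paraspeckles, had 3 regions in its body that passed. In the first (chr19:5839658-5840170) there were 88.1, 29.3 and 97.3 CPM in 6w BM, against 20.7, 6.56 and 15.7 CPM in 4w BM. The groups were apart, at a log2 fold change of 2.34 (SE 0.304, adjusted p = 7.58e-06, edgeR), which was among the smallest p-values in the table. Malat1, a neighbouring noncoding RNA gene, had 147 ± 47.2 CPM in 6w BM and 127 ± 35.0 CPM in 4w BM (SD, n = 3 each), a log2 fold change of 0.21 (adjusted p = 0.681, edgeR).

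A smaller number of regions had 6w BM 2 close to its partners. Ctla2b, which encodes a cathepsin inhibitor-like protein, had 47.5, 40.9 and 60.3 CPM in 6w BM (chr13:60893809-60895164), against 19.3, 18 and 19.2 CPM in 4w BM (log2 fold change 1.40, SE 0.251, adjusted p = 0.00124, edgeR). The region nearest to Zfp324 (chr7:12949382-12949987) had 76.8, 93.1 and 93.8 CPM in 6w BM, against 50.4, 54.8 and 46.6 CPM in 4w BM (log2 fold change 0.80, SE 0.170, adjusted p = 0.0154, edgeR). Over the 59 regions, 6w BM 2 was the lowest of its group in 53 and 6w BM 3 the highest in 47, and 4w BM 2 was the lowest of its group in 34. The groups did not overlap in 44 of the 59, against 14.2% of all regions tested. A larger share was given by choosing the 59 on these same libraries. The 59 regions lay at 37 genes, of which 13 held more than 1 such region, 34 in all, so the regions are not independent of each other.

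The second set was defined by its pattern elsewhere. Taking as anchor a region in the body of Kat6b, which encodes a histone acetyltransferase, 114 regions correlated with it at r over 0.8 on log2 CPM over the 20 libraries outside 6w BM and 4w BM. The anchor was picked with its 6w BM difference in view, and the 8w BM libraries were among the 20. The Kat6b region (chr14:21613305-21613917) had 104, 80.9 and 119 CPM in 6w BM, against 7.14, 5.87 and 5.11 CPM in 4w BM. The groups were far apart (log2 fold change 4.07, SE 0.526, adjusted p = 7.58e-06, edgeR). Other stages were split too, at 161 to 281 CPM in perinatal marrow, 46.8 to 55.3 CPM in 3w BM, 4.59 to 139 CPM in 1w BM and 4.77 to 75.5 CPM in E12.5 fetal liver.

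Of the 114 regions, 66 were higher in 6w BM, 113 had a positive log2 fold change, and 109 had no overlap between the groups. Over all regions tested these shares were 0.129, 48.7 and 14.2%. The median log2 fold change was 2.72. Near Fstl1, which encodes a secreted glycoprotein, a region (chr16:37734877-37735475) had 40.3, 33.7 and 52.5 CPM in 6w BM, against 1.43, 2.42 and 2.13 CPM in 4w BM. Near Itprip, which encodes a partner of the IP3 receptor, another (chr19:47925771-47926304) had 45.1, 29.7 and 54.1 CPM in 6w BM, against 5, 1.9 and 3.4 CPM in 4w BM. Both were low in every 4w BM library, and their log2 fold changes were 4.35 (adjusted p = 1.5e-05) and 3.68 (adjusted p = 1.99e-05, edgeR).

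Elmod3, which encodes a GTPase-activating protein, and the zinc finger gene Zfp791 had such regions in their bodies. The Elmod3 region (chr6:72570355-72570933) had 22, 12.9 and 26 CPM in 6w BM, against 1.67, 1.04 and 2.34 CPM in 4w BM. The Zfp791 region (chr8:85112857-85113423) had 37, 21.9 and 46.5 CPM in 6w BM, against 3.57, 2.07 and 1.49 CPM in 4w BM. These values had no overlap and gave log2 fold changes of 3.59 and 3.89. As a gene, Zfp791 passed (log2 fold change 2.69, adjusted p = 0.0123, edgeR), but with the 114 regions left out its log2 fold change was -0.40 (adjusted p = 0.760).

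These regions lay on all 19 autosomes. Of the 114, 54 (47.4%) were in gene bodies, 34 (29.8%) had no gene within 50 kb, and 2 (1.75%) lay at gene ends. Among all regions tested these shares were 43.7, 12.98 and 18.1%. The set thus lay more often far from genes, and less often at gene ends, than regions in general. The authors had called a peak there in none of the 4w BM libraries for 110 of the 114, and in all 3 of 6w BM for 34. Summed over the 114, the counts were 1472, 1033 and 1580 CPM in 6w BM, against 251, 165 and 233 CPM in 4w BM. 8 libraries of the 26 lay between 143 and 253 CPM, namely the 3 of 4w BM, the 3 of 8w BM, 1w BM 1 and E12.5 fetal liver 2, and the other 18 between 644 and 4201 CPM. Replicates of 1w BM and of E12.5 fetal liver were thus on both sides of the step, and the labels name no batch that could be set beside it. What parts these libraries was not tested.

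**Figure D3:**
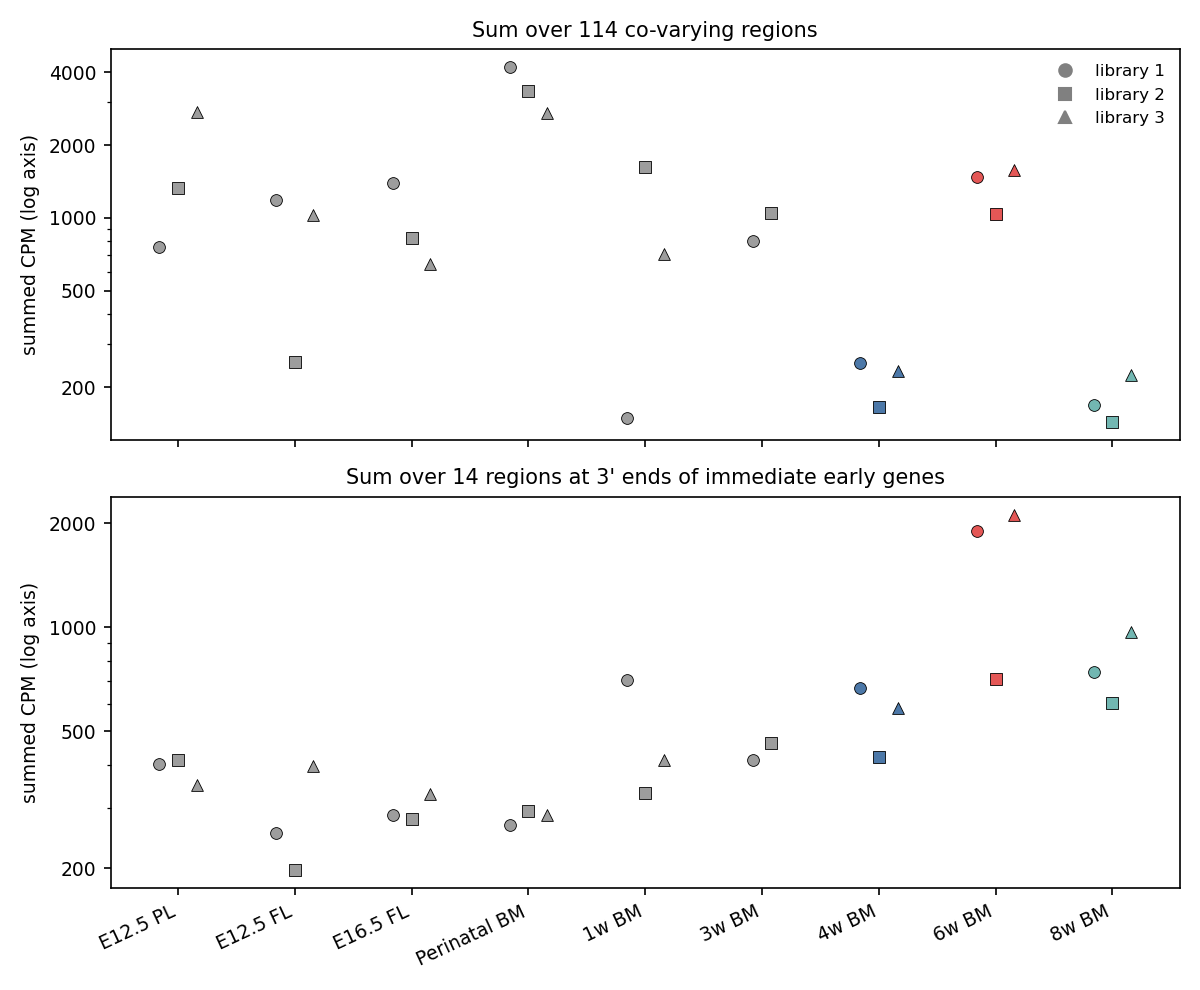
Summed CPM (log axes) in each of the 26 libraries, by stage, for the 114 co-varying regions (upper panel) and the 14 regions at 3' ends of immediate early genes (lower panel), with a marker shape per replicate number. In the upper panel all 6w BM libraries (1033 to 1580 CPM) stand apart from all 4w BM and 8w BM libraries, and in the lower panel 6w BM 1 and 3 (1908 and 2123 CPM) stand apart from the rest.

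A single region, counted among the 59, had the highest counts of them. It lies near Col19a1 (chr1:24612485-24613105) and had 1388, 668 and 1015 CPM in 6w BM, against 41.6, 49.2 and 42.8 CPM in 4w BM and 50, 43.1 and 30.9 CPM in 8w BM (log2 fold change 4.52 for 6w BM over 4w BM, adjusted p = 0.00262, edgeR). Libraries of other stages were between 18.3 and 1294 CPM. That stretch of chromosome 1 is known to carry a nuclear copy of mitochondrial DNA, so its counts are uncertain, because reads of near-identical copies cannot be told apart.

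Only 10 regions were lower, and most held few counts. Igf2bp3 encodes an RNA-binding protein of the fetal stem cell program, a target of the Lin28b pathway. The region at its start (chr6:49215210-49215776) had 4.03, 1.97 and 1.62 CPM in 6w BM, against 12.1, 7.08 and 12.1 CPM in 4w BM. There was no overlap, and the log2 fold change was -2.03 (SE 0.332, adjusted p = 0.000207, edgeR). Earlier stages were higher again, at 12.9 to 14 CPM in 3w BM, 22.9 to 32.1 CPM in 1w BM and means of 25.8, 29.9 and 45.2 CPM in perinatal marrow, E12.5 fetal liver and E12.5 PL. Summed over its 13 regions, Igf2bp3 had 47.5 ± 15.3 CPM in 6w BM and 75.3 ± 12.8 CPM in 4w BM (SD, n = 3 each), which did not pass (log2 fold change -0.66, adjusted p = 0.0679, edgeR).

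Crhbp, which encodes a binding protein of corticotropin-releasing hormone, passed as a region and as a gene. The region (chr13:95427382-95427981) had 0.537, 1.75 and 2.16 CPM in 6w BM, against 5, 10.2 and 6.38 CPM in 4w BM (log2 fold change -2.26, SE 0.479, adjusted p = 0.0142, edgeR). Over 3 regions the gene had 2.6, 4.12 and 5.03 CPM in 6w BM, against 12, 13.4 and 12.1 CPM in 4w BM (log2 fold change -1.66, SE 0.322, adjusted p = 0.0101, edgeR). Both were apart, at low counts.

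The body of Sardh, which encodes a mitochondrial sarcosine dehydrogenase, had 13.4, 14.9 and 10.8 CPM in 6w BM (chr2:27232259-27232881), against 23.8, 30.7 and 27.5 CPM in 4w BM (log2 fold change -1.07, SE 0.247). Its adjusted p of 0.0427 was the last to pass, and a region of Shb at 0.0515 (log2 fold change 2.03, edgeR) was the first to miss. Cradd, an adaptor of caspase-2, had 3.22, 4.81 and 2.7 CPM in 6w BM (chr10:95191836-95192387), against 9.52, 11.2 and 12.8 CPM in 4w BM (log2 fold change -1.62, adjusted p = 0.0226, edgeR). Ltbp3, which encodes a binding protein of latent TGF-beta, had 2.15, 0.437 and 0.811 CPM in 6w BM (chr19:5751665-5752203), against 4.52, 5.87 and 5.96 CPM in 4w BM (log2 fold change -2.29, adjusted p = 0.0189, edgeR). A Fam178b region had the same low values in 6w BM, 2.15, 0.437 and 0.811 CPM, against 3.81, 6.05 and 5.75 CPM in 4w BM (log2 fold change -2.23, adjusted p = 0.0420, edgeR).

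In 3 more, 6w BM was near 0. A Pi16 region had 3 counts over the 6w BM libraries, against 51 over 4w BM, a ratio of 0.0720 after scaling (exact 95% interval 0.0144 to 0.223, covering counting error only). Plekhf2 had 2 against 42, a ratio of 0.0583 (0.00684 to 0.224). Casz1 had 2 against 33, a ratio of 0.0742 (0.00863 to 0.290). The reverse case was Eml4, with 20 counts in 6w BM against 0 in 4w BM, at least 8.16-fold higher with a floor of 3 counts over the group. Among the 9 lower regions with a named gene, only that of Igf2bp3 passed under every alternative run. At the gene level the next genes downward did not pass, namely Arfgef2 (-0.55, adjusted p = 0.0551), Adam15 (-0.58, 0.0592), Rnf182 (-0.68, 0.0710) and Anapc2 (-0.67, 0.0776, edgeR).

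**Figure D4:**
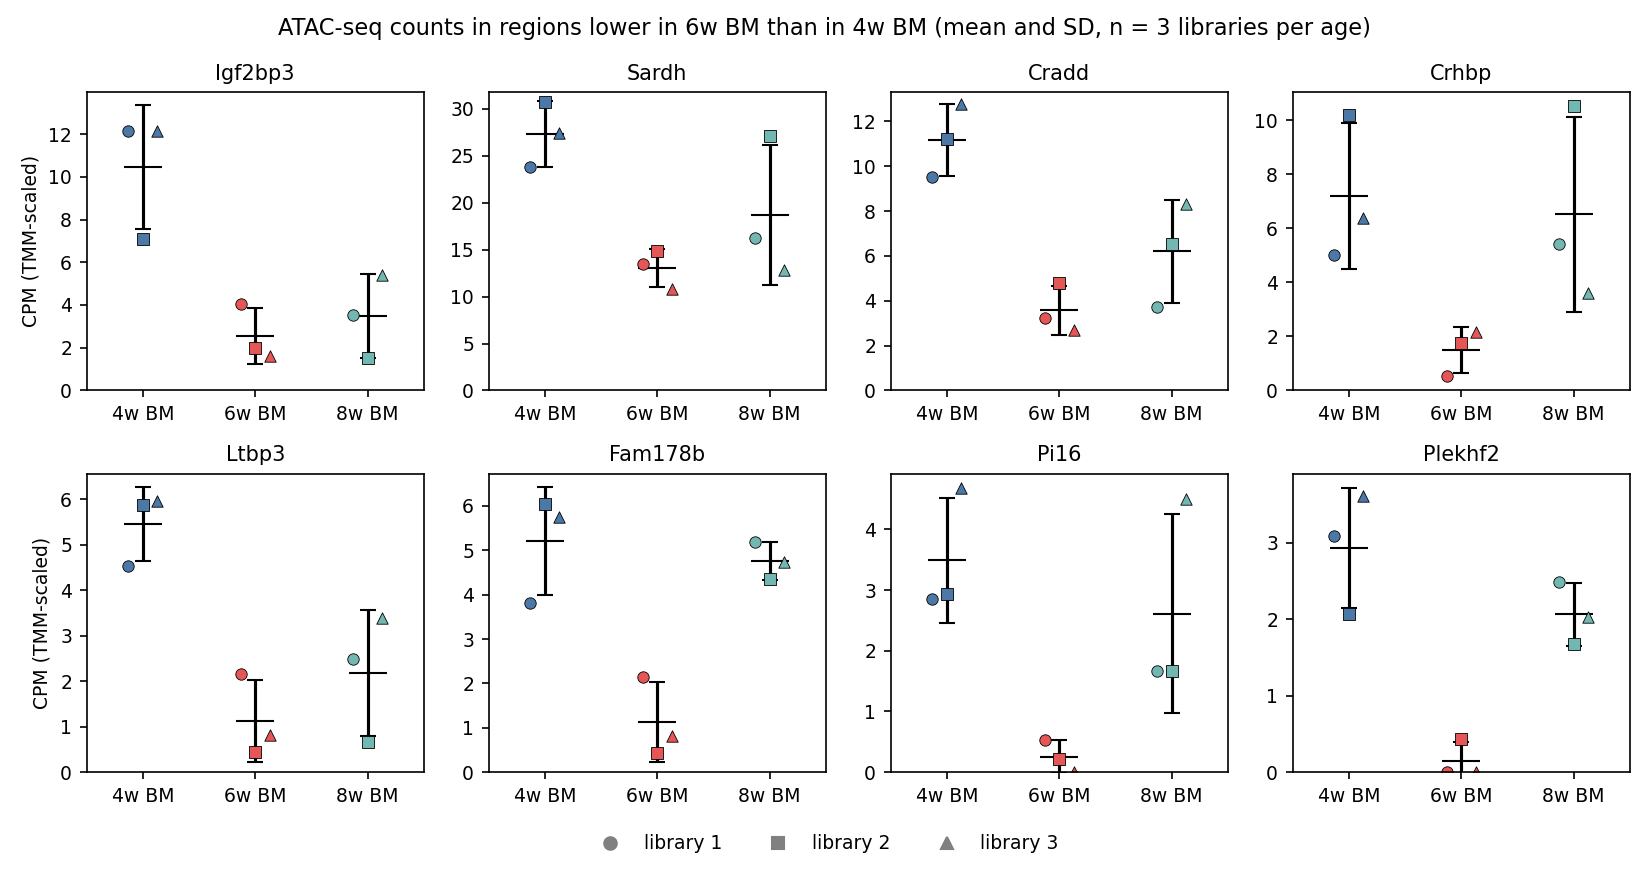
CPM (vertical axes) in each library at regions lower in 6w BM than in 4w BM, with 1 point per library, the mean as a line and the SD as a bar (n = 3). At Igf2bp3 the 8w BM libraries (3.53, 1.51 and 5.41 CPM) lie with 6w BM, and at Crhbp (5.4, 10.5 and 3.61 CPM) they lie mostly with 4w BM.

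Genes that mark the sorted cells were level between the groups. Kit had 86.1 ± 1.81 CPM in 6w BM and 87.3 ± 3.56 CPM in 4w BM (SD, n = 3 each, log2 fold change -0.02, adjusted p = 0.970, edgeR). Flt3 (0.14), Cd34 (0.12), the stem cell factor gene Mecom (0.02) and Ptprc (-0.04) had differences near 0 as well. Ly6a, which encodes Sca-1, was covered by only 1 region, at 1.56 ± 0.385 CPM in 6w BM and 1.86 ± 1.40 CPM in 4w BM, too few counts to judge. Of the fetal-type genes, Lin28b was at -0.05 and Hmga2 at -0.27 (adjusted p = 0.267, edgeR).

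Lists of genes for other cell types and pathways showed little. Of 27 lists, 4 held a gene that passed: the immediate early list with its 8, and the lists for glucocorticoid response (Rgs2, 1 of 20), quiescence (Egr1, 1 of 19) and homing (Rgs1, 1 of 22), each upward. The other 23 had none in either direction, with medians between -0.18 and 0.03. Over the neutrophil list summed counts were 787 to 820 CPM in 6w BM and 873 to 891 CPM in 4w BM, with 6 of 17 genes positive and a median of -0.18. Over the macrophage, monocyte and dendritic list they were 1186 to 1243 CPM in 6w BM and 1293 to 1302 CPM in 4w BM, with 5 of 20 positive. Over the endothelial list they were 1215 to 1318 CPM in 6w BM and 1326 to 1405 CPM in 4w BM, with 5 of 20 positive and a median of -0.09. None of the genes of these 3 lists passed. The sums of 7 of the 27 lists were lower in every 6w BM library than in every 4w BM library, these 3 and the stromal list (637 to 693 CPM in 6w BM and 699 to 751 CPM in 4w BM) among them. Another was the fetal-type list (1031 to 1049 CPM in 6w BM, 1115 to 1152 CPM in 4w BM and 1017 to 1050 CPM in 8w BM). The sums of 4 were higher in every 6w BM library. They included a reference list of genes of other tissues (587 to 598 CPM in 6w BM and 572 to 586 CPM in 4w BM). Of all genes tested, 21% had no overlap between the groups. The part of these lists in the results was not tested, and in bulk cells a change in the mix and a change within cells cannot be told apart.

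The 8w BM libraries were then set against both ages. A region counted as returned where 8w BM differed from 6w BM in the opposite direction and not from 4w BM, and as kept where 8w BM differed from 4w BM and not from 6w BM. Of the 135 regions, 69 had returned, none was kept, and 66 met neither rule. Across all regions, 8w BM over 6w BM gave 5 higher (0.00516%) and 86 lower (0.0887%), 0.0939% in all, and 8w BM over 4w BM gave none (edgeR, with 2083 higher and 1901 lower at an unadjusted p under 0.05, and 1 of each by DESeq2). The 3 contrasts share libraries, so they are not independent. Without 8w BM 3, 61 had returned and 1, at Igf2bp3, was kept. Returned regions numbered 31 without 8w BM 2, 44 without 8w BM 1, 38 without 6w BM 3 and 41 without 4w BM 2.

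Of the 66 co-varying regions that were higher, 56 had returned and 10 met neither rule. Because the 8w BM libraries were among the 20 used to choose these regions, their 8w BM values are a description. Median group means over them were 1.35 CPM in 4w BM, 10.8 CPM in 6w BM and 1.33 CPM in 8w BM. The Kat6b region had 4.15, 3.68 and 4.06 CPM in 8w BM, at or under the 4w BM level (8w BM over 6w BM, log2 fold change -4.67, adjusted p = 7.77e-07, edgeR). Summed over the 114, 8w BM held 169, 143 and 224 CPM.

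In the 59 other regions the 8w BM mean lay between those of 4w BM and 6w BM in 55. Their median log2 fold change was 1.51 for 6w BM over 4w BM and 0.67 for 8w BM over 4w BM. In the second, 55 of 59 were positive, against 49154 of all 96929 regions tested. Of the 59, 12 had returned while 47 met neither rule. On the scale where 4w BM is 0 and 6w BM is 1, the median 8w BM position was 0.49 (range -0.12 to 0.89). Over all regions tested it was 0.47, as both differences are taken from the same 4w BM libraries. The position alone therefore does not show that part of a rise was kept. In the 59 regions without 8w BM 3, the median for 8w BM over 4w BM was 0.57, again with 55 positive, and the median position 0.47. Median group means were 18.1 CPM in 4w BM, 56.2 CPM in 6w BM and 34.5 CPM in 8w BM. All 8w BM libraries were above all 4w BM libraries in 33 regions and below all 6w BM libraries in 16. These shares were not taken over all regions, and the 59 were chosen on the same 4w BM and 6w BM libraries.

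Regions of this set that counted as returned include those at Fosb, Fos, Klf2, Klf6 and the 3' end of Rhob. At Fosb 8w BM had 57.1, 38 and 68 CPM (8w BM over 6w BM, log2 fold change -1.69, adjusted p = 0.000625, edgeR). At Fos it had 20.8, 13.4 and 38.5 CPM (adjusted p = 0.0121). These lay close to 4w BM, above it in part. Klf2, with 29.9, 39.8 and 36.7 CPM, was inside or below its 4w BM range. Klf6 had 16, 10.7 and 20.7 CPM and the 3'-end region of Rhob 12, 5.52 and 10.6 CPM. Without 8w BM 3 the regions printed here for these 5 genes still counted as returned, and those at Egr1, Btg2 and Iqcn (chr8:70702317-70703201) did so as well.

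Other genes stayed between. Neat1 had 41.3, 23.4 and 57 CPM in 8w BM, all above 4w BM (8w BM over 4w BM, log2 fold change 1.52, adjusted p = 0.116, edgeR). Near Rgs1, 8w BM had 28.7, 14.2 and 27.5 CPM, also above all of 4w BM. Beside Actb it had 43.6, 28.8 and 42.4 CPM, and at Jun 215, 115 and 294 CPM, with 8w BM 2 inside the 4w BM range. In the body of Tspoap1 (chr11:87759474-87760036), which encodes a synaptic adaptor, the values were 52.3, 45.1 and 42.3 CPM in 4w BM, 112, 66.4 and 130 CPM in 6w BM and 86.2, 95.7 and 91.7 CPM in 8w BM. These differences from 4w BM did not pass, and a p that misses the threshold does not show that 8w BM was at the 4w BM level.

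**Figure D5:**
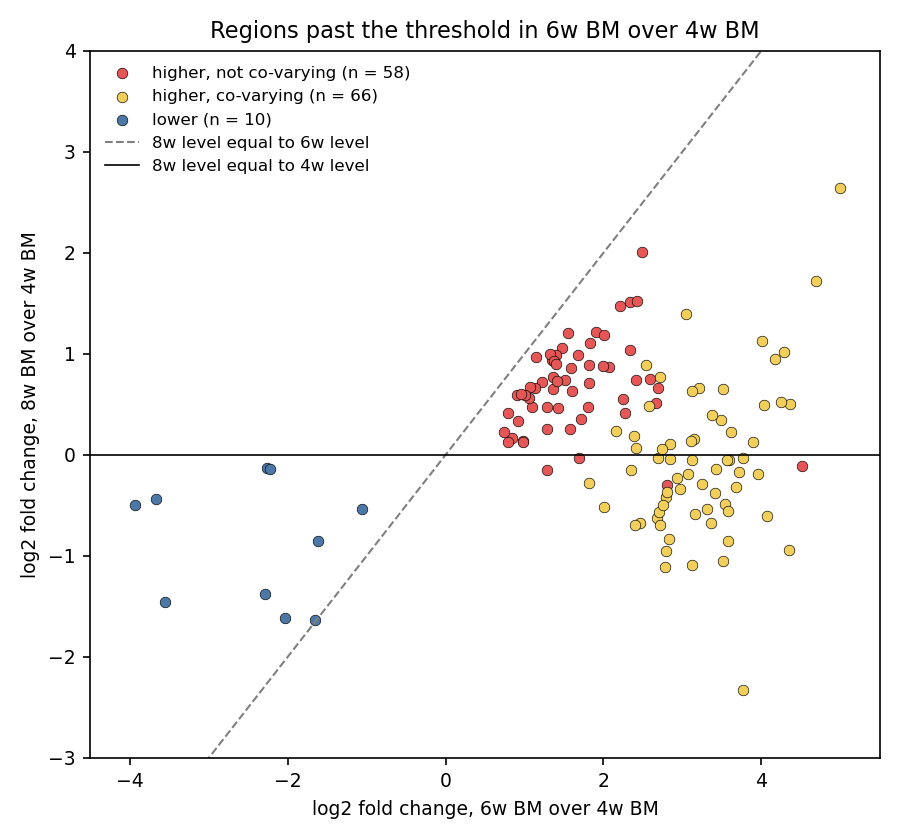
Log2 fold change of 8w BM over 4w BM (vertical axis) against that of 6w BM over 4w BM (horizontal axis) for the regions called between 6w BM and 4w BM, coloured by set, without the Eml4 region, which had 0 counts in 4w BM. The co-varying regions scatter around 0 on the vertical axis (median -0.15), and most of the other higher regions lie between that line and the diagonal (median 0.67).

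A contrast that uses none of the 6w BM or 4w BM libraries is 8w BM over 3w BM. Over all regions it gave 9 higher (0.00929%) and 32 lower (0.033%), 0.0423% in all, with a median log2 fold change of 0.02, and the number fell to 7 without 3w BM 2, 13 without 8w BM 1, 15 without 3w BM 1, 18 without 8w BM 2 and 27 without 8w BM 3, against 41 with all. Among the 59 regions, 51 were positive, against 50278 of all 96929 tested, and the median was 0.42. Of the 59, 3 passed, at Egr1 (1.87, adjusted p = 0.00403), Btg2 (adjusted p = 0.0211) and the Iqcn region past the end of Jund (1.90, adjusted p = 0.0324, edgeR). Without 8w BM 3, the library with an E12.5 stage label, 48 were positive, the median was 0.43, and none passed, the smallest adjusted p being 0.0784 (edgeR), at Egr1. In the 66 co-varying regions the median 3w BM group mean was 7.74 CPM, against 1.33 CPM in 8w BM. None of the 66 was positive for 8w BM over 3w BM, and 21 of them were among the 32 lower regions. Of all 114 co-varying regions, 24 were among the 32. The 8w BM and 3w BM libraries were among those used to choose these regions.

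Of the lower regions, that of Crhbp had returned, at 5.4, 10.5 and 3.61 CPM in 8w BM (8w BM over 6w BM, adjusted p = 0.0461, edgeR). The Igf2bp3 region had 3.53, 1.51 and 5.41 CPM in 8w BM, all below 4w BM and overlapping 6w BM. For 8w BM over 4w BM its log2 fold change was -1.62 with an adjusted p of 0.0700 (edgeR), the smallest in that contrast, and for 8w BM over 3w BM it was -2.01 (adjusted p = 0.000720). Without 8w BM 3 these were -2.07 (adjusted p = 0.0155) and -2.46 (adjusted p = 0.000354, edgeR), so the first passed. As a gene, Igf2bp3 was the one that passed in 8w BM over 3w BM (-0.90, adjusted p = 0.0398, edgeR), but without 8w BM 3 it did not (-0.90, adjusted p = 0.374). Ltbp3 was low in 8w BM as well, at 2.49, 0.669 and 3.38 CPM, and Cradd between, at 3.74, 6.52 and 8.34 CPM. The Fam178b region, at 5.19, 4.35 and 4.73 CPM, was within its 4w BM range.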

How the data were processed

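ATAC-seq libraries of 26 developmental samples in 9 groups were used. The deposited table holds the authors' raw counts per region, with regions shared by all libraries. Per the file format, the authors' peak lists, 1 per library, hold for each peak its fold enrichment (a ratio to local background), −log10 p and q values and a score for display. Per the submitters' processing notes the build was mm10 and the tools included Trim Galore, MACS2, deepTools, DiffBind and HOMER. Per the labels' protocols, 10 PCR cycles were run. The aligner, duplicate removal and any shift for Tn5 are not given in the sources used here, so edges of regions may be off by a few bases and copies made by PCR may be counted.

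From the counts, autosomal regions were filtered (edgeR 4.0.16, filterByExpr, minimum count 10), scaled by TMM and fitted with a mean for each of the 9 groups over all 26 libraries. The quasi-likelihood F test was two-sided, with Benjamini-Hochberg adjustment over all autosomal regions or genes and a threshold of 0.05. Autosomal CPM are TMM-scaled, those of the X chromosome are scaled by total counts alone, and fitted log2 fold changes used a prior count of 0.125. Regions went to the nearest RefSeq gene span (GRCm38.p6) within 50 kb, and a gene end is within 1 kb of a span's end. Where a gene's start regions and 3' ends are compared, strand came from the RefSeq promoter table. Promoters were matched by symbol, and 4 of 4 sought were found. Region widths ran from 501 to 2971 bases.

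The genes named were those of smallest p, up to 12 per direction, with no overlap between groups and an adjusted p under 0.05, or the 5 of smallest p where fewer passed. Others are called members of the lists, or were chosen after their values were seen, such as Vim, Rhob, Ctla2b, Eml4 and Col19a1. The members and lists (27 lists, 561 entries) were chosen with earlier results of these data known.

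The fit was tested on simulated data with the 6w BM over 4w BM design. It recovered 50 of 50 regions raised 4-fold, 43 of 50 lowered 4-fold, 21 of 50 raised 2-fold and 16 of 50 lowered 2-fold, with 7 false calls among 95447 regions. The changed regions were drawn from those with mean counts above the median, and the stages did not differ otherwise. These rates therefore do not cover regions of fewer counts, such as most of the lower regions. No pair of replicates was a repeat deposit, since their chi-square statistic was 2.08 to 3.06 for each region compared. Alternatives were DESeq2 1.42.0, other scalings and filters, other sets of libraries, thinning, and leaving out each library. Intervals cover counting error only.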

Additional observations from a re-analysis of the deposited data

Results flagged for a closer look

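The X chromosome lies outside the autosomal comparison. Fitted together with the autosomes, 6 of its 2076 tested regions were higher and 25 lower in 6w BM than in 4w BM (1.49%, edgeR quasi-likelihood test, adjusted p under 0.05), and 13 of those were at Firre, a noncoding RNA gene of the X chromosome. Summed over its called regions, Firre had 9.36, 7.41 and 9.19 CPM in 6w BM, against 121, 104 and 101 CPM in 4w BM, and 8w BM had 6.36, 7.36 and 13.3 CPM. The labels do not give the sex of the mice, and the part of sex in the autosomal results was not tested.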

How the results depend on the processing

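The counts changed with the tool, the groups fitted and the regions kept. Against 135 regions for 6w BM over 4w BM, DESeq2 gave 87 (80 of them shared, 59.3% of the 135), a fit of 3w, 4w, 6w and 8w BM alone 472, and the fit without the co-varying regions, chosen after seeing the data, 58, with 66 of the 135 left out by construction. Genes numbered 26, against 47 and 624 under the first and second of these. For 8w BM over 6w BM (91) the 3 settings gave 41, 138 and 5, for 8w BM over 3w BM (41) 18, 124 and 15, and for returned regions (69) 21, 111 and 5. Without the E12.5 PL libraries 8w BM over 3w BM gave 80, and with the X chromosome 80. For 8w BM over 4w BM (0) DESeq2 gave 2, loess offsets 1, the 4-age fit 6, the fit without E12.5 PL 6 and all chromosomes 27, and the kept regions (0) numbered 2, 1, 4, 5 and 25, or 17 with unadjusted p. The main fit did not pair samples by number. Deviations of same-numbered 6w BM and 4w BM libraries correlated at 0.0945, 0.0691 and -0.0162, and those of differently numbered ones at -0.136 to 0.0770. Same-numbered 8w BM and 4w BM libraries were at -0.00588, 0.170 and 0.0522. Such correlations over all regions cannot settle whether libraries of the same number share something. With the replicate block, only the 4w, 6w and 8w BM libraries were fitted. The counts were then 735, 38 and 164 regions for 6w BM over 4w BM, 8w BM over 4w BM and 8w BM over 6w BM. Genes numbered 1033, returned regions 131 and kept regions 24. The block and the set of libraries changed together, so their parts cannot be told apart. Leaving out 1 library gave 69 to 144 regions and 2 to 26 genes for 6w BM over 4w BM, 0 to 4, 33 to 110 and 7 to 45 regions for the other contrasts in the order above, 31 to 87 returned and 0 to 2 kept. The peak number ratio of 1.002 was 0.966 with stricter peaks and 0.901 to 1.187 with a library left out. Of the named results under their alternatives, 688 kept direction and call, 81 lost the call, 17 gained it and 1 reversed, Zfp791 as a gene (-0.40 without the co-varying regions). The causes were not tested. At these depths regions of few counts and 2-fold changes are often missed.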
